A study of Mus musculus with 19 samples.

Results

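Xcr1, Tlr11, Clec9a, Batf3, Tlr3, Irf4 and Naaa are 7 genes of conventional dendritic cells, and they were followed library by library in RNA from sorted blood stem and progenitor cells of mice. They are 7 of 24210 named genes in the deposited count table, which has 33862 rows, each a RefSeq transcript accession. The genes were chosen from measured values of these libraries, because they had differed between drug-treated and vehicle-treated leukaemic mice. Their own levels are therefore given as a description. Where a member is said to pass a threshold or not, in any comparison, nothing is read from it. For a gene with several accessions, the one with the highest mean count over the 19 libraries was kept.

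Conventional dendritic cells take up antigen and present it to T cells on MHC class II and class I molecules. They arise from bone marrow progenitors under the cytokine receptor Flt3, and they form a cross-presenting branch, cDC1, and a branch that mainly primes helper T cells, cDC2. In mice, Batf3 is a transcription factor needed for cDC1 development, Xcr1 is the chemokine receptor that marks cDC1 cells, and Clec9a is their receptor for dead cells. Tlr3 senses double-stranded RNA and Tlr11 senses profilin of protozoan parasites, both from endosomes. Irf4 is a transcription factor of cDC2 cells that is also used in B and T cells, and Naaa is a lysosomal enzyme that breaks down N-acylethanolamine lipids.

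The study sorted lineage-negative, Sca+, cKit+ (LSK) cells, the compartment that holds haematopoietic stem cells, from C57BL/6 mice and sequenced their polyA RNA without culture. The 5 groups were untreated wild-type mice (WT, n = 4), Idh2 R140Q;Flt3-ITD mice given vehicle (IDH2-FLT3 vehicle, n = 3) or AG-221 (n = 4), and Tet2-/- mice, whose Flt3 allele the labels spell Flt3-IDT, given vehicle (TET2-FLT3 vehicle, n = 4) or 5-Aza (n = 4). The series text describes both mutant lines as having acute myeloid leukaemia. AG-221, an inhibitor of mutant IDH2, was fed by gavage for 4 to 5 weeks, with 2 doses daily of 100 mg/kg as a single agent or of 40 mg/kg when combined, and which of these a library had is not in the labels. 5-Aza, a DNA hypomethylating agent for which the series text also writes decitabine, was injected into the peritoneum in 4 cycles of 21 days, each with 5 daily injections of 5 mg/kg. All 4 mutant groups carry a mutant Flt3, the WT mice received no vehicle, and the labels name no age, no Cre and no pooling of animals. Nothing in the labels says that libraries of a group came from separate animals, so p-values measure only the spread between these libraries, which may be technical.

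Library totals ran from 9635795 to 20383132 counts. Of the sort's own genes, Kit and Ly6a (which encodes Sca-1) had at most 4 counts in every library, like many genes with several accessions, so the sort could be checked only on Cd34, Meis1, Hlf and Procr. Their summed level, in counts per 1000000 (CPM), was 700 to 1131 in WT. It was 35.2 to 95.7 in IDH2-FLT3 vehicle and 244 to 484 with AG-221, while the TET2-FLT3 libraries held 191 to 383 given vehicle and 363 to 648 given 5-Aza. Most of this sum was Hlf, with 89230 counts in all, against 9585 for Procr, 3201 for Cd34 and 814 for Meis1. In IDH2-FLT3 vehicle against WT, 2 of the 4 passed as lower, beside 10.4% of all accessions. Cd34 (log2 fold change 0.72) and Meis1 (-1.77), with 2 accessions each, did not pass. The sum thus mostly follows 1 gene and is no measure of how pure the sort was. The libraries V3-2 of IDH2-FLT3 vehicle and V5-2 of TET2-FLT3 vehicle stood apart from their groups in earlier results of these data, and their names do not say whether they repeat the mice of V3 and V5.

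Because hypomethylating agents lower methylation at CG dinucleotides, the promoters of the 5 members with counts are shown with every CG in capitals. Each window runs from 250 bases before the annotated start to 50 bases after it, 5′ to 3′ on the gene's strand, from RefSeq on GRCm38.p6. All 7 members matched a window there, the counts themselves were made on mm9, and no methylation was analysed here.
Xcr1: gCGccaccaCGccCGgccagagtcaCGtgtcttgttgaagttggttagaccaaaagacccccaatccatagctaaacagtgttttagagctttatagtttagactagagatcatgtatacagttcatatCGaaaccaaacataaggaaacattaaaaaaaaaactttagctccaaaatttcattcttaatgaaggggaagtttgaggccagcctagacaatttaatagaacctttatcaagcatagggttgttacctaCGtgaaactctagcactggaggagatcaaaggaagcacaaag
Tlr11: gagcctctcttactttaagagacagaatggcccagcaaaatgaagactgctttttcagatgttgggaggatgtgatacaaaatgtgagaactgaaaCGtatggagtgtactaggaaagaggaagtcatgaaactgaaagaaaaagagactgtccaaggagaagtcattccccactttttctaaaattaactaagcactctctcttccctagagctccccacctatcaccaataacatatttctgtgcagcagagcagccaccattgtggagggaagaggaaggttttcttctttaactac
Tlr3: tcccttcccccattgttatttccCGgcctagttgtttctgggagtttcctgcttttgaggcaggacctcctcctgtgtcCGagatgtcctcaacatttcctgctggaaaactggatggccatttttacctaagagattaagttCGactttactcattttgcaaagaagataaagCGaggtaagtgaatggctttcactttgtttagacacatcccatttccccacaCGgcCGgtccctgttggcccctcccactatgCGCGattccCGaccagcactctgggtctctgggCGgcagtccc
Batf3: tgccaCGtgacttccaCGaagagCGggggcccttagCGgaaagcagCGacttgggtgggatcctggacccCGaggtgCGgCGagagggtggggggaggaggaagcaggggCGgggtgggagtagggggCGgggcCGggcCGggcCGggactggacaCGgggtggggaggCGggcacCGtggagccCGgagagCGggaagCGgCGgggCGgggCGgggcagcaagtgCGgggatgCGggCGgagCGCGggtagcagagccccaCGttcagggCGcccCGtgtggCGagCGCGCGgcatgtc
Irf4: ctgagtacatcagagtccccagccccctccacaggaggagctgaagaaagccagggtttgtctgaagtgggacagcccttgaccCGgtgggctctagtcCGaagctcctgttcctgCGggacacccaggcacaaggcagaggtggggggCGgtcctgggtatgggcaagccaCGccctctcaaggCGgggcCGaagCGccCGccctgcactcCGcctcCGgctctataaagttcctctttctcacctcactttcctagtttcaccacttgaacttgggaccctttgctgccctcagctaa

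The windows are at chr9:123861980-123862279 on the minus strand for Xcr1, chr14:50357664-50357963 on the plus strand for Tlr11, chr8:45410331-45410630 on the minus strand for Tlr3, chr1:191098164-191098463 on the plus strand for Batf3 and chr13:30748983-30749282 on the plus strand for Irf4. The Batf3 window held 34 CG and was 75.7% G or C, and 93.0% of the 32851 RefSeq windows held no more CG than it. The Tlr11 window held 1 CG, that of Xcr1 held 6, that of Tlr3 held 10 and that of Irf4 held 11, against a median of 7 over all windows. The windows not printed held 1 CG for Clec9a and 12 for Naaa. The windows of the 5 measured members held 1 to 34 CG. A part of CG number or methylation in their levels was not tested.

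The windows were also searched on both strands for the AP-1 site TGANTCA, which Batf family dimers can bind, the repeat GAAANNGAA of interferon regulatory factors, and the composite core GGAANNGAA of ETS and interferon regulatory factors. These letters occur in 7.81%, 8.56% and 8.24% of all windows. The Tlr11 window held the second, as gaaactgaa at position -122 from the gene's start, and the Clec9a window held it on the other strand. No other match was found in the 7 windows, which says only that these letters are not in them.

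Clec9a and Naaa could not be followed. All 4 Clec9a accessions were listed at 0 in all 19 libraries, and the 2 Naaa accessions together had 1 count, in V3 of IDH2-FLT3 vehicle. Of the 14603 accessions that belong to genes with several, 61.6% were at 0 in every library, against 18.9% of the others, and 1392 of the 5140 such genes had no count at all. A 0 for Clec9a or Naaa is therefore no measure of its expression. The 5 other members have 1 accession each and had counts in every library, and all 5 passed the filter on low counts.

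Xcr1, the cDC1 chemokine receptor, spanned the widest range of CPM among the members. WT libraries held 10.4, 20.2, 11.1 and 11.4 CPM, and V3, V3-2 and V9 of IDH2-FLT3 vehicle held 50.3, 30.4 and 214 CPM. In TET2-FLT3 vehicle it was 213, 263, 134 and 103 CPM in V1, V5, V5-2 and V19. Every library of either leukaemic vehicle group lay above every WT library.
The treated libraries were spread differently in the 2 lines. Xcr1 was 5.44, 23.0, 24.3 and 237 CPM in AG1, AG8, AG12 and AG13, so that 3 AG-221 libraries lay below all 3 IDH2-FLT3 vehicle libraries and AG13 above them. In 5-Aza it was 1.05, 2.26, 3.57 and 1.98 CPM in AZ10, AZ11, AZ16 and AZ17, from 13 to 47 counts. The lowest TET2-FLT3 vehicle library was 28.8 times the highest 5-Aza library, and the lowest WT library was 2.92 times that library.

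**Figure D1:**
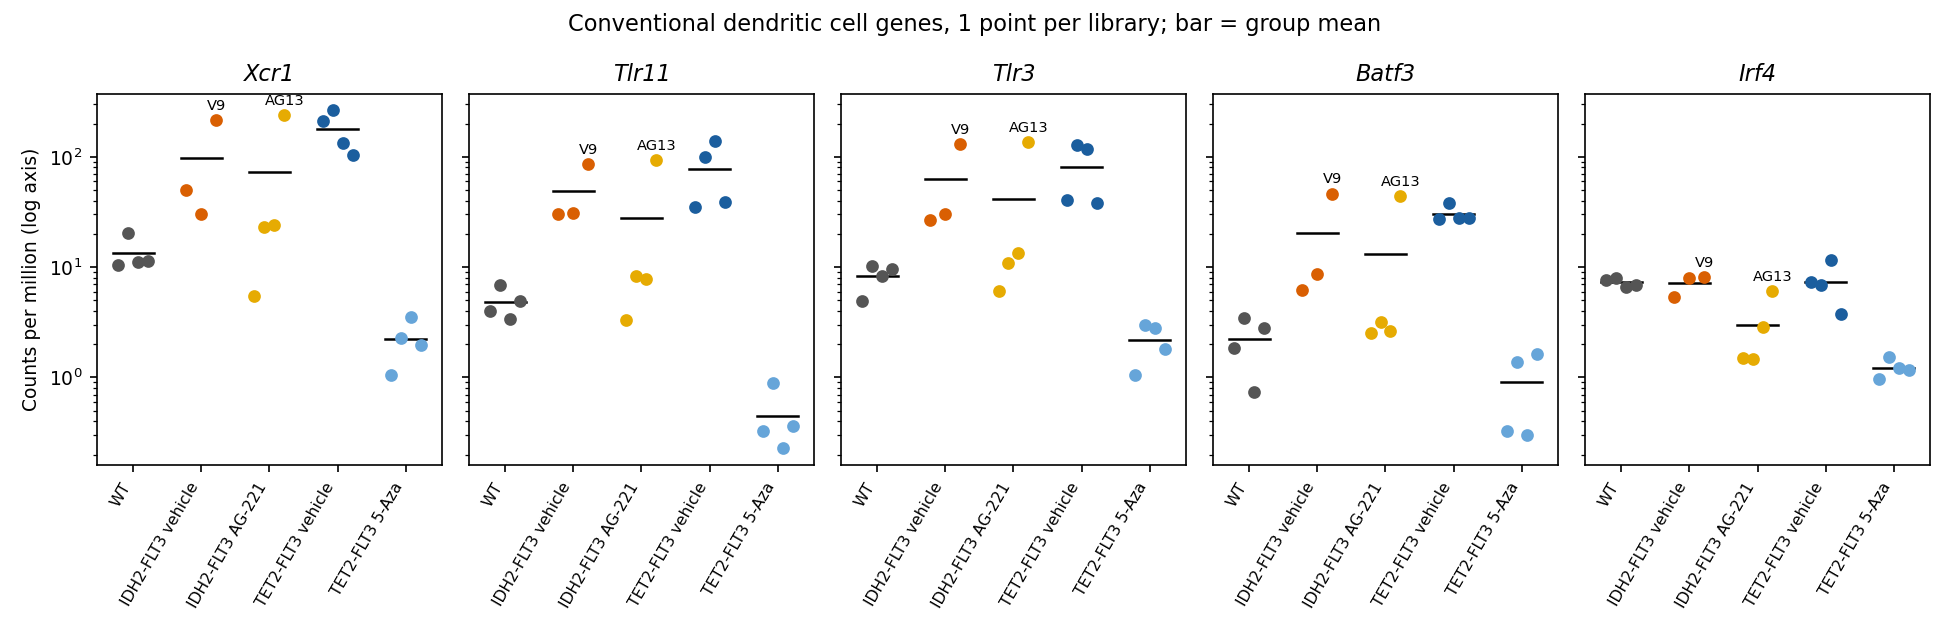
CPM of the 5 measured members on a log axis, with 1 point per library and a bar at the group mean. For Xcr1, the 4 5-Aza libraries lie between 1.05 and 3.57 CPM, below all others, and V9 and AG13 stand far above the rest of their groups for each member but Irf4, where V9 does not.

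Tlr11, the profilin sensor, followed the same order of groups at lower CPM. It was 3.98, 6.95, 3.39 and 4.92 CPM in WT, and 30.1, 30.6 and 85.9 CPM in V3, V3-2 and V9 of IDH2-FLT3 vehicle. In TET2-FLT3 vehicle it was 34.9, 100, 139 and 38.8 CPM in V1, V5, V5-2 and V19. Both vehicle groups were clear of WT.
AG1, AG8 and AG12 had 3.32, 8.39 and 7.75 CPM of Tlr11, close to WT, while AG13 had 93.1 CPM. In 5-Aza the level was 0.324, 0.889, 0.228 and 0.361 CPM, from 3 to 11 counts. That is near the limit of what these depths can measure, and the highest 5-Aza library still lay 39.2 times below the lowest TET2-FLT3 vehicle library.

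Tlr3, the sensor of double-stranded RNA, was 4.90, 10.2, 8.34 and 9.59 CPM in WT. It was 26.9, 30.4 and 130 CPM in V3, V3-2 and V9 of IDH2-FLT3 vehicle, and 40.5, 128, 117 and 38.2 CPM in V1, V5, V5-2 and V19 of TET2-FLT3 vehicle. Both vehicle groups again lay wholly above WT.
AG1, AG8 and AG12 had 6.04, 10.9 and 13.5 CPM of Tlr3 and AG13 had 136 CPM. The 5-Aza libraries had 1.05, 2.99, 2.81 and 1.80 CPM. The lowest TET2-FLT3 vehicle library was 12.8 times the highest of these, and the lowest WT library 1.64 times.

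Batf3, the cDC1 transcription factor, was 1.84, 3.47, 0.743 and 2.82 CPM in WT. In V3, V3-2 and V9 of IDH2-FLT3 vehicle it was 6.24, 8.61 and 46.3 CPM. In TET2-FLT3 vehicle it was 27.1, 38.1, 28.01 and 27.8 CPM in V1, V5, V5-2 and V19, the narrowest spread of the cDC1 members there, with a mean of 30.3 ± 5.26 (SD, n = 4).
AG1, AG8 and AG12 had 2.52, 3.16 and 2.61 CPM of Batf3, within the WT range, and AG13 had 44.0 CPM. The 5-Aza libraries had 0.324, 1.37, 0.304 and 1.62 CPM, from 4 to 18 counts. Here 5-Aza overlapped WT, unlike for the other 4 measured members, while its highest library was 16.7 times below the lowest vehicle library.

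Irf4, the cDC2 factor, did not follow the cDC1 members. It was 7.58, 8.003, 6.61 and 6.93 CPM in WT, 5.40, 8.03 and 8.10 CPM in V3, V3-2 and V9 of IDH2-FLT3 vehicle, and 7.36, 6.89, 11.5 and 3.74 CPM in V1, V5, V5-2 and V19 of TET2-FLT3 vehicle. These 3 groups overlapped, with means between 7.17 and 7.38 CPM.
With AG-221, Irf4 was 1.51, 1.46, 2.86 and 6.06 CPM in AG1, AG8, AG12 and AG13, where AG13 alone fell inside the vehicle range. With 5-Aza it was 0.971, 1.54, 1.21 and 1.17 CPM, below every WT and every vehicle library. The lowest WT library was 4.30 times the highest 5-Aza library.

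Ordered by mean CPM, Xcr1, Tlr11, Tlr3 and Batf3 had the same ranking of groups: TET2-FLT3 vehicle, IDH2-FLT3 vehicle, AG-221, WT and 5-Aza. For Xcr1 the means were 178 ± 73.1 (SD, n = 4), 98.1 ± 101 (n = 3), 72.5 ± 110 (n = 4), 13.3 ± 4.65 (n = 4) and 2.22 ± 1.04 CPM (n = 4). The SD of both IDH2-FLT3 groups exceeded or neared their means, so the upper 3 groups did not differ beyond their spread, nor did AG-221 and WT. Levels of different genes can be compared only per length, on the authors' FPKM scale. There TET2-FLT3 vehicle had 41.1 ± 9.95 FPKM of Batf3, 37.7 ± 14.2 of Xcr1, 25.4 ± 20.1 of Tlr11, 19.02 ± 13.1 of Tlr3 and 1.58 ± 0.95 of Irf4 (SD, n = 4). In WT the same genes had 3.53 ± 1.90, 3.35 ± 1.07, 1.69 ± 0.525, 2.16 ± 0.65 and 1.75 ± 0.128 FPKM, so that Irf4 stood beside the cDC1 members in WT and far below them in TET2-FLT3 vehicle.

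Each vehicle group was compared with WT. The WT mice received no vehicle, so genotype, vehicle and the mix of cells sorted cannot be told apart here. In a fit across all 11830 accessions that passed the filter, Xcr1 differed between IDH2-FLT3 vehicle and WT by a log2 fold change of 2.88 ± 0.84 (SE), Tlr11 by 3.34 ± 0.83, Tlr3 by 2.92 ± 0.82 and Batf3 by 3.19 ± 0.92. Between TET2-FLT3 vehicle and WT the differences were 3.74 ± 0.84, 4.02 ± 0.82, 3.29 ± 0.81 and 3.76 ± 0.91. Those of Irf4 were -0.02 ± 0.47 and 0.02 ± 0.43. Without V9, the IDH2-FLT3 differences were 1.59 for Xcr1, 2.65 for Tlr11, 1.78 for Tlr3 and 1.73 for Batf3. Over all alternatives the TET2-FLT3 differences ran from 3.11 to 4.02, 2.98 to 4.27, 2.41 to 3.53 and 3.30 to 4.06.
In each of these comparisons 4 of the 5 measured members passed an adjusted p of 0.05 as higher and none as lower. Over all accessions 10.1% passed as higher and 10.4% as lower in IDH2-FLT3 vehicle, and 4.43% and 5.71% in TET2-FLT3 vehicle. The same 4 members lay above WT with no overlap in each line, as did 17.1% of all accessions in IDH2-FLT3 vehicle and 6.98% in TET2-FLT3 vehicle. Nothing is read from these counts, because the members were picked with such results known. The 2 comparisons share the WT libraries.

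**Figure D2:**
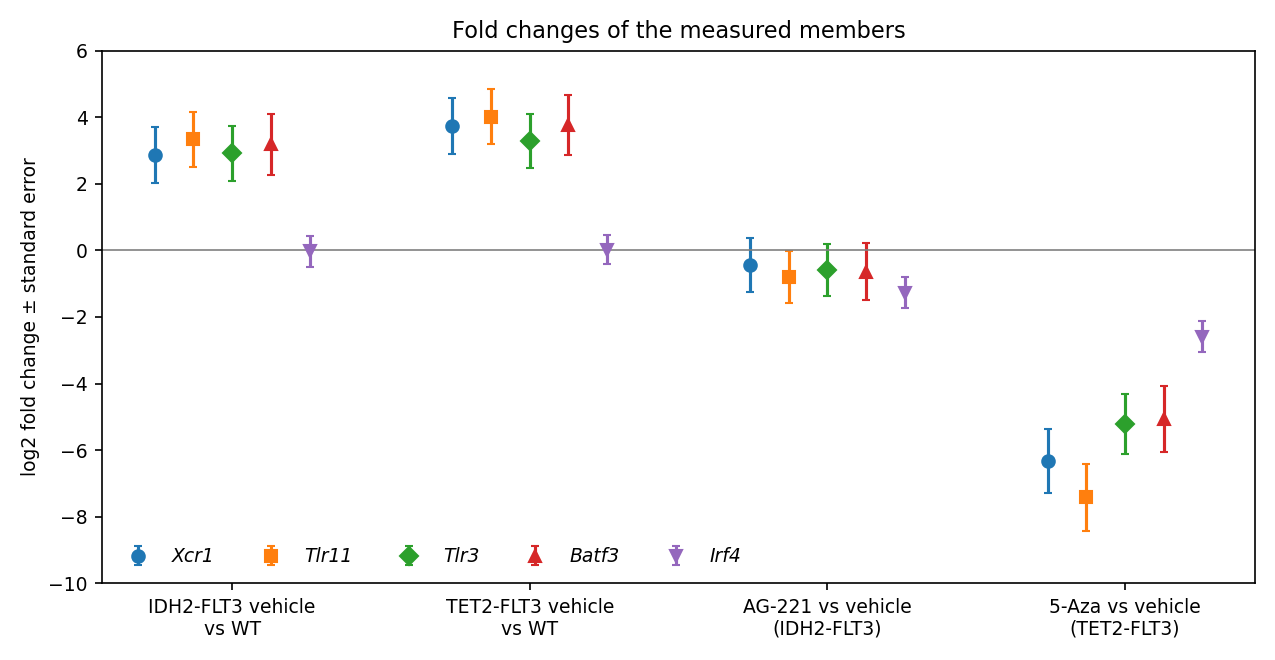
Log2 fold change with its standard error of each measured member in 4 comparisons, from a fit to all 19 libraries. The 4 cDC1 members lie between 2.88 and 4.02 in the vehicle comparisons with WT and between -7.41 and -5.06 with 5-Aza, and their standard errors with AG-221 reach 0.86.

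Between the vehicle groups the measured members overlapped. IDH2-FLT3 vehicle minus TET2-FLT3 vehicle gave log2 differences of -0.86 ± 0.83 for Xcr1, -0.68 ± 0.79 for Tlr11, -0.38 ± 0.80 for Tlr3, -0.57 ± 0.87 for Batf3 and -0.04 ± 0.47 for Irf4. No member passed the threshold, beside 1.93% of all accessions higher and 2.35% lower. Without V9 the differences were -2.16 for Xcr1, -1.38 for Tlr11, -1.51 for Tlr3 and -2.04 for Batf3. That of Tlr3 turned to 0.17 without V3-2 and V5-2.

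AG-221 was compared with vehicle in the IDH2-FLT3 line. The log2 differences were -0.44 ± 0.81 for Xcr1, -0.80 ± 0.78 for Tlr11, -0.59 ± 0.79 for Tlr3, -0.64 ± 0.86 for Batf3 and -1.27 ± 0.47 for Irf4, and none of the 5 passed, beside 4.39% of accessions higher and 5.29% lower. The values of Xcr1, Tlr11, Tlr3 and Batf3 rested heavily on 1 library on each side. AG13 was 13.5 times the mean of the other 3 AG-221 libraries for Xcr1, 14.3 for Tlr11, 13.4 for Tlr3, 15.9 for Batf3 and 3.11 for Irf4. V9 was 5.30 times the mean of V3 and V3-2 for Xcr1, 2.83 for Tlr11, 4.54 for Tlr3, 6.23 for Batf3 and 1.21 for Irf4.
Without AG13 the differences became -2.47 for Xcr1, -2.90 for Tlr11, -2.62 for Tlr3, -2.87 for Batf3 and -1.88 for Irf4. Without V9 they became 0.85, -0.10, 0.55, 0.82 and -1.17. The direction of Xcr1, Tlr3 and Batf3 under AG-221 thus turned with V9, and that of Tlr11 and Irf4 did not.

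5-Aza was compared with vehicle in the TET2-FLT3 line, and here the differences of the members were the widest of the 4 drug and genotype comparisons. Tlr11 was lower by a log2 fold change of -7.41 ± 1.01, a fold of 171, Xcr1 by -6.32 ± 0.97 (79.9-fold), Tlr3 by -5.22 ± 0.90 (37.2-fold), Batf3 by -5.06 ± 0.98 (33.4-fold) and Irf4 by -2.59 ± 0.47 (6.01-fold). All 5 lay below vehicle with no overlap, against 4.26% of all accessions. All 5 passed the threshold as lower, beside 1.45% of accessions lower and 0.431% higher, and nothing is read from that, since this contrast is among those that led to their choice. In bulk RNA, fewer cells of a type and less RNA per cell cannot be told apart.
Over the alternative fits and left-out libraries, the difference ran from -7.98 to -4.20 for Tlr11, -6.65 to -4.64 for Xcr1, -5.45 to -3.48 for Tlr3, -5.49 to -4.31 for Batf3 and -2.81 to -0.97 for Irf4.

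The 2 drug responses were also compared with each other, as the log2 difference with AG-221 less that with 5-Aza. This was 6.62 ± 1.27 for Tlr11, 5.88 ± 1.25 for Xcr1, 4.63 ± 1.18 for Tlr3, 4.42 ± 1.29 for Batf3 and 1.31 ± 0.66 for Irf4. Over the alternatives and left-out libraries it ran from 2.83 to 7.31, 3.74 to 7.17, 2.51 to 5.76, 2.19 to 5.88 and 0.36 to 1.54 in that order. Without AG13 it was 4.51 for Tlr11, 3.85 for Xcr1, 2.60 for Tlr3, 2.19 for Batf3 and 0.71 for Irf4. Of the 5 members, 1 (Tlr11) passed as higher, beside 0.203% of accessions higher and 0.0254% lower, and nothing is read from that, since the drug comparisons led to the choice of the members. No accession at all passed without V3-2 or with only the groups compared. The lines, drugs, doses and schedules all differ between the 2 responses and cannot be told apart.

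A list of 62 other dendritic cell genes was also followed, of which 46 passed the filter. This list too was drawn up with earlier results of these data known, so its counts are a description and nothing is read from them. Cd207, Ccl22 and Il12b had at most 4 counts in any WT library and at most 2 in any 5-Aza library. Itgae had at most 8 and 7 there, and Tlr9 at most 12 and 9. All of these passed the filter through mutant groups where they were higher, so the direction of their calls against WT or 5-Aza was largely set in advance. The same holds against WT for Cd80, with at most 6 counts in any WT library. Dtx1, called lower in both lines, had 12 to 18 counts in WT and at most 3 in any vehicle library, so its direction was largely set through WT. In IDH2-FLT3 vehicle against WT, 22 of the 46 rose, 5 fell and 19 did not pass, beside 10.1% and 10.4% of all accessions, with a median log2 fold change of 1.58 against 0.02 over all accessions. In TET2-FLT3 vehicle 18 rose, 1 fell and 27 did not pass, beside 4.43% and 5.71%, with a median of 1.54 against 0.07. Of the 46, 26 lay wholly above WT in the first line, beside 17.1% of all accessions, and 23 in the second, beside 6.98%.

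Of 11 other cDC1 genes tested, 6 rose and 5 did not pass in IDH2-FLT3 vehicle, and 7 rose and 4 did not pass in TET2-FLT3 vehicle. Over all accessions 10.1% rose and 10.4% fell in IDH2-FLT3 vehicle, and 4.43% rose and 5.71% fell in TET2-FLT3 vehicle. Itgae, the integrin CD103 of tissue cDC1 cells, had 0.511 ± 0.064 CPM in WT (SD, n = 4), 40.4 ± 44.4 in IDH2-FLT3 vehicle (n = 3) and 63.8 ± 17.8 in TET2-FLT3 vehicle (n = 4), log2 fold changes of 6.28 ± 1.03 (SE, edgeR adjusted p = 0.000452) and 6.94 ± 1.03 (adjusted p = 0.000384). Cd207, which encodes langerin, had no count in any WT library, and with 3 counts over that group as the floor it was at least 108-fold higher in IDH2-FLT3 vehicle and at least 166-fold higher in TET2-FLT3 vehicle. Without the highest library these bounds were 43.7-fold (V9 left out) and 64.1-fold (V1 left out).
Snx22, a sorting nexin, rose by 3.52 ± 0.75 in TET2-FLT3 vehicle (adjusted p = 0.00633). Rab7b, a small GTPase of endosomes and lysosomes, rose by 2.82 ± 0.65 (adjusted p = 0.00979), and Nfil3, a transcription factor upstream of Batf3 in cDC1 development, rose by 2.25 ± 0.50 (adjusted p = 0.00884). Nfil3 ran from 18.4 to 123 CPM there, with V1 far above the rest, and rose by 1.37 without V1.
Irf8, the main cDC1 transcription factor, has 2 accessions and 264 counts over all 19 libraries on the one kept, so its level may be undercounted as for Clec9a. It had 0.349 ± 0.189 CPM in WT and 1.59 ± 0.774 in TET2-FLT3 vehicle and did not pass (adjusted p = 0.187).

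Among the other roles, 3 of 8 tested cDC2 genes rose and 2 fell in IDH2-FLT3 vehicle, and 3 rose and 1 fell in TET2-FLT3 vehicle. Beside this count and those of the roles below, 10.1% of all accessions rose and 10.4% fell in IDH2-FLT3 vehicle. In TET2-FLT3 vehicle 4.43% rose and 5.71% fell. Few genes were tested per role, some counts are near these shares, and nothing is read from them. Clec12a, an inhibitory lectin, went from 244 ± 66.9 CPM in WT to 1229 ± 449 in IDH2-FLT3 vehicle, a log2 fold change of 2.33 ± 0.40 (adjusted p = 0.00056). Klf4, a transcription factor of cDC2 and monocytes, rose by 3.43 ± 0.62 (adjusted p = 0.000943). Of 6 tested endosomal Toll-like receptors and helpers, all rose in IDH2-FLT3 vehicle and 3 in TET2-FLT3 vehicle. There Tlr13, which senses bacterial ribosomal RNA in mice, rose by 3.19 ± 0.81 (adjusted p = 0.0178).
Of 8 activation genes, 3 rose and 1 fell in IDH2-FLT3 vehicle, and 3 rose in TET2-FLT3 vehicle. Ccl22, a chemokine of mature dendritic cells, rose by 6.58 ± 1.41 (adjusted p = 0.00321) and 5.42 ± 1.36 (adjusted p = 0.0164). Cd274, the checkpoint ligand PD-L1, fell by 1.63 in IDH2-FLT3 vehicle, from 50.7 ± 8.36 to 16.4 ± 2.79 CPM (adjusted p = 0.00127).
Of 10 genes listed for both branches, not all of them particular to dendritic cells, 2 rose and 2 fell in IDH2-FLT3 vehicle and 1 rose in TET2-FLT3 vehicle. Bcl11a, a transcription factor that lymphoid and plasmacytoid cells also use, fell by 2.08 on the log2 scale in IDH2-FLT3 vehicle (adjusted p = 0.00394). Of the 3 enzymes around the Naaa pathway, 2 rose in IDH2-FLT3 vehicle and 1 in TET2-FLT3 vehicle. Asah1, acid ceramidase, rose by 1.58 ± 0.28 (adjusted p = 0.000841) and 1.17 ± 0.27 (adjusted p = 0.00942).
The TET2-FLT3 count of 19 changed with single libraries left out. It was 6 without wt1, 11 without wt2, 7 without wt3 and 6 without wt4. Of the vehicle libraries, it was 13 without V1, 12 without V5, 14 without V5-2 and 18 without V19. Ccl22 in that line lost its call without wt1, wt3 or wt4, and Tlr13 without wt1 or wt4.

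**Figure D3:**
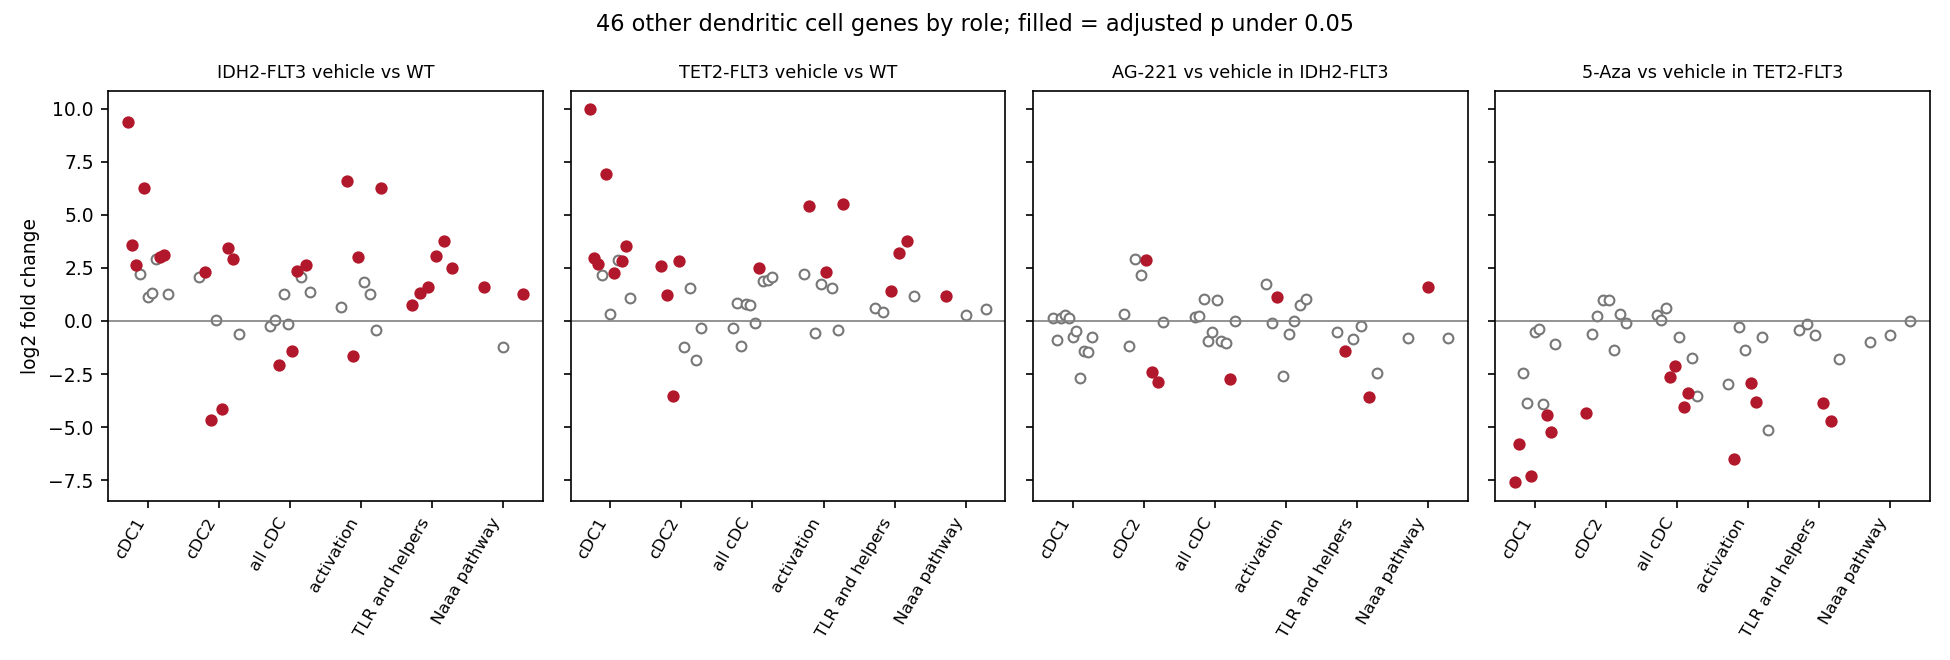
Log2 fold changes of 46 other dendritic cell genes, by role, in 4 comparisons, with filled points for those at an adjusted p under 0.05. In the 5-Aza panel all 15 filled points lie below 0, and 5 of them are cDC1 genes.

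With 5-Aza, 15 of the 46 other genes fell, none rose and 31 did not pass, beside 1.45% of all accessions lower and 0.431% higher. They had a median log2 fold change of -1.56 against -0.05 over all accessions, and 21 lay wholly below vehicle, beside 4.26%. By role, 5 of 11 cDC1 genes fell, 1 of 8 cDC2 genes and 4 of 10 genes listed for both branches. So did 3 of 8 activation genes, 2 of 6 Toll-like receptor genes and none of the 3 lipid enzymes. Itgae fell by 7.32 on the log2 scale, from 63.8 ± 17.8 to 0.394 ± 0.168 CPM (adjusted p = 0.00199). Snx22 fell by 5.24 (adjusted p = 0.00243) and Rab7b fell by 4.44 (adjusted p = 0.00243). Hepacam2, an adhesion molecule, fell by 5.77 (adjusted p = 0.00794), and Cd207 fell by 7.60, from 9.83 ± 12.1 CPM with V1 at 27.9 to 0.0392 ± 0.0453 (adjusted p = 0.0148).
Cd209a, a DC-SIGN family lectin and the cDC2 gene called, fell by 4.31 (adjusted p = 0.0133). Itgax, the integrin CD11c used to identify dendritic cells, fell by 4.07 (adjusted p = 0.0157), and Cxcl16, a chemokine, fell by 3.83 (adjusted p = 0.0168). Zbtb46, a transcription factor of conventional dendritic cells with 2 accessions, had 5.71 ± 1.83 CPM with vehicle and 0.493 ± 0.531 with 5-Aza and did not pass (adjusted p = 0.125), nor did Irf8 (adjusted p = 0.125).
The count of 15 was 5 without AZ10, 8 without AZ11, 4 without AZ16 and 7 without AZ17. Cd209a and Itgax lost their calls without AZ10 or AZ16, Cd207 without AZ10, AZ16 or AZ17, and Cxcl16 without AZ11, AZ16 or AZ17. Itgae, Snx22, Rab7b and Hepacam2 kept theirs without any 1 library. For Itgae nothing is read from that, since the filter largely set its direction.

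With AG-221, 3 of the 46 rose, 5 fell and 38 did not pass, beside 4.39% of all accessions higher and 5.29% lower, and none of the 8 was a cDC1 gene. Counts this near those shares say little about the list. Klf4 went from 73.3 ± 42.3 to 13.8 ± 10.5 CPM, a log2 fold change of -2.41 ± 0.60 (adjusted p = 0.0219). Mgl2, a lectin of cDC2 cells and macrophages, fell by 2.88 (adjusted p = 0.0291). Spi1, the myeloid factor PU.1, fell by 2.74 (adjusted p = 0.0292), with V3-2 at 432 CPM and the lowest vehicle library at 31.4. Without V3-2 the Spi1 difference was -0.43 (adjusted p = 0.704). Tlr9, the sensor of CpG DNA, fell by 3.56 (adjusted p = 0.0399), with a difference of -2.05 without V3-2 (adjusted p = 0.296). Ticam1, the adaptor of Tlr3, fell by 1.43 (adjusted p = 0.0342).
Cd274 rose by 1.14 ± 0.30 (adjusted p = 0.027), Faah, which hydrolyses fatty acid amides, rose by 1.59 ± 0.45 (adjusted p = 0.0349), and Esam, an adhesion molecule of cDC2 and of stem cells, rose by 2.88 ± 0.90 (adjusted p = 0.047). Without V9 the differences of Faah and Esam were 2.77 and 8.21. All 8 calls were lost without V3-2, where the count was 0, and when only the 2 groups were fitted. The count was also 0 without AG12, 1 without V3, 2 without AG1 or AG8, 13 without AG13 and 14 without V9.

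Between the vehicle groups, Mgl2 was higher in IDH2-FLT3 vehicle than in TET2-FLT3 vehicle, with 46.8 ± 36.3 and 1.74 ± 0.166 CPM (a log2 difference of 4.75 ± 0.85, adjusted p = 0.00378), and Cd274 was lower by a log2 fold change of -1.06 ± 0.30 (adjusted p = 0.0482). The other 44 of the 46 genes did not pass. The Cd274 call was lost without any of V3, V3-2, V9, V1, V5 or V19, and the count of 2 was 8 without V9 or V5-2 and 1 without V3, V3-2, V1 or V19. The drug responses differed for Itgae by 7.45 ± 1.36 on the log2 scale (adjusted p = 0.0187). This call was lost without V3, V3-2, AZ10, AZ11 or AZ16, and the count of 1 was 14 without V9 and 3 without AG1 or V5-2.

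By likeness of profile, the genes nearest each member were found among 7648 genes of at least 5 CPM on average, as the smallest mean absolute difference of centred log2 CPM over the 19 libraries. Nearest to Xcr1 were Jaml (0.37), H2-Eb1 (0.37) and Gpr141b (0.43), where Xcr1 itself deviated from its mean by 1.98 on average. Nearest to Tlr11 were Jaml (0.44), Gpr141b (0.44) and Xcr1 (0.46). Tlr3 was nearest to Snx22 (0.38), Rab7b (0.39) and H2-Eb1 (0.44), and Batf3 to Ckb (0.47), H2-Ab1 (0.47) and Jaml (0.49).
H2-Eb1 and H2-Ab1 encode MHC class II chains, and Jaml an adhesion molecule of leukocytes. Nearest to Irf4, which deviated by 0.91, were Serpinf1 (0.42), Rgs10 (0.44) and Traf5 (0.45), none of which was near another member.

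Marker lists of other cells were followed beside the members, and not all of them moved with the members. The 7 MHC class II genes, all measured, summed to 1230 to 2104 CPM in WT. They reached 2475 to 13860 in IDH2-FLT3 vehicle and 804 to 13850 with AG-221, while the TET2-FLT3 libraries held 4031 to 13630 given vehicle and 700 to 1471 given 5-Aza. V9 and AG13 were the highest of their groups. The 14 monocyte and macrophage markers, all measured, summed to 647 to 1419, 2657 to 11040, 1058 to 3683, 1493 to 3056 and 556 to 1120 CPM with the groups in the order just used, and V9 was the lowest of its group. The summed level of a list follows its most abundant genes, and single markers could differ from it. The 11 measured of 14 plasmacytoid dendritic cell markers summed to 365 to 505, 482 to 771, 224 to 568, 395 to 767 and 274 to 480 CPM in the same order, with Ccr9, Irf7 and Pacsin1 at 4 counts or fewer in every library. Against WT, however, 6 of these 11 fell and 1 rose in IDH2-FLT3 vehicle, with a median log2 fold change of -2.30 and Siglech at -4.73, and 2 fell and 2 rose in TET2-FLT3 vehicle. With AG-221, 2 rose and 1 fell. Over all accessions 10.4% fell and 10.1% rose in IDH2-FLT3 vehicle, and 5.71% fell and 4.43% rose in TET2-FLT3 vehicle. With AG-221 5.29% fell and 4.39% rose.
Against WT, 11 of 12 tested monocyte markers rose in IDH2-FLT3 vehicle and 5 in TET2-FLT3 vehicle, and none fell. Of the 7 MHC class II genes 4 and 3 rose in these groups and none fell. With AG-221, 6 of the 12 monocyte markers fell and none rose, and no MHC class II gene passed. These counts stand beside the shares of all accessions just given. With 5-Aza, 5 of 7 MHC class II genes, 2 of 12 tested monocyte markers and 2 of 11 plasmacytoid markers fell and none rose. Over all accessions 1.45% fell and 0.431% rose. The 7 measured of 8 neutrophil markers, with S100a9 not measured, summed to 202 to 2293 CPM in TET2-FLT3 vehicle and 513 to 1761 in 5-Aza. They summed to 872 to 25340 in IDH2-FLT3 vehicle and 1391 to 23770 in AG-221, with V9 the lowest there.
The 8 measured of 9 B cell markers summed to 489 to 624 CPM in WT and 48.0 to 145 in all mutant groups. All 8 fell in both vehicle groups, beside 10.4% of all accessions in IDH2-FLT3 vehicle and 5.71% in TET2-FLT3 vehicle. The 6 measured of 7 T and NK cell markers summed to 241 to 2120 CPM in TET2-FLT3 vehicle and to 1941 to 3303 in 5-Aza, and none of the 6 passed the test there. Nearly all of that sum was Nkg7, with 337544 counts in all libraries together. Cd3e, Cd3d, Cd3g, Il2rb and Lck had 265 to 418 counts each, so the sum does not give their level. Against WT, 4 of the 6 fell in IDH2-FLT3 vehicle and 2 in TET2-FLT3 vehicle, beside the same 10.4% and 5.71%. With AG-221 3 rose, beside 4.39% of all accessions. Calls with AG-221 were unstable over all accessions: 1145 passed, 110 without V3-2 and 0 with only the groups compared. The part of these cells in the levels of Xcr1, Tlr11, Tlr3, Batf3 and Irf4 was not tested.

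**Figure D4:**
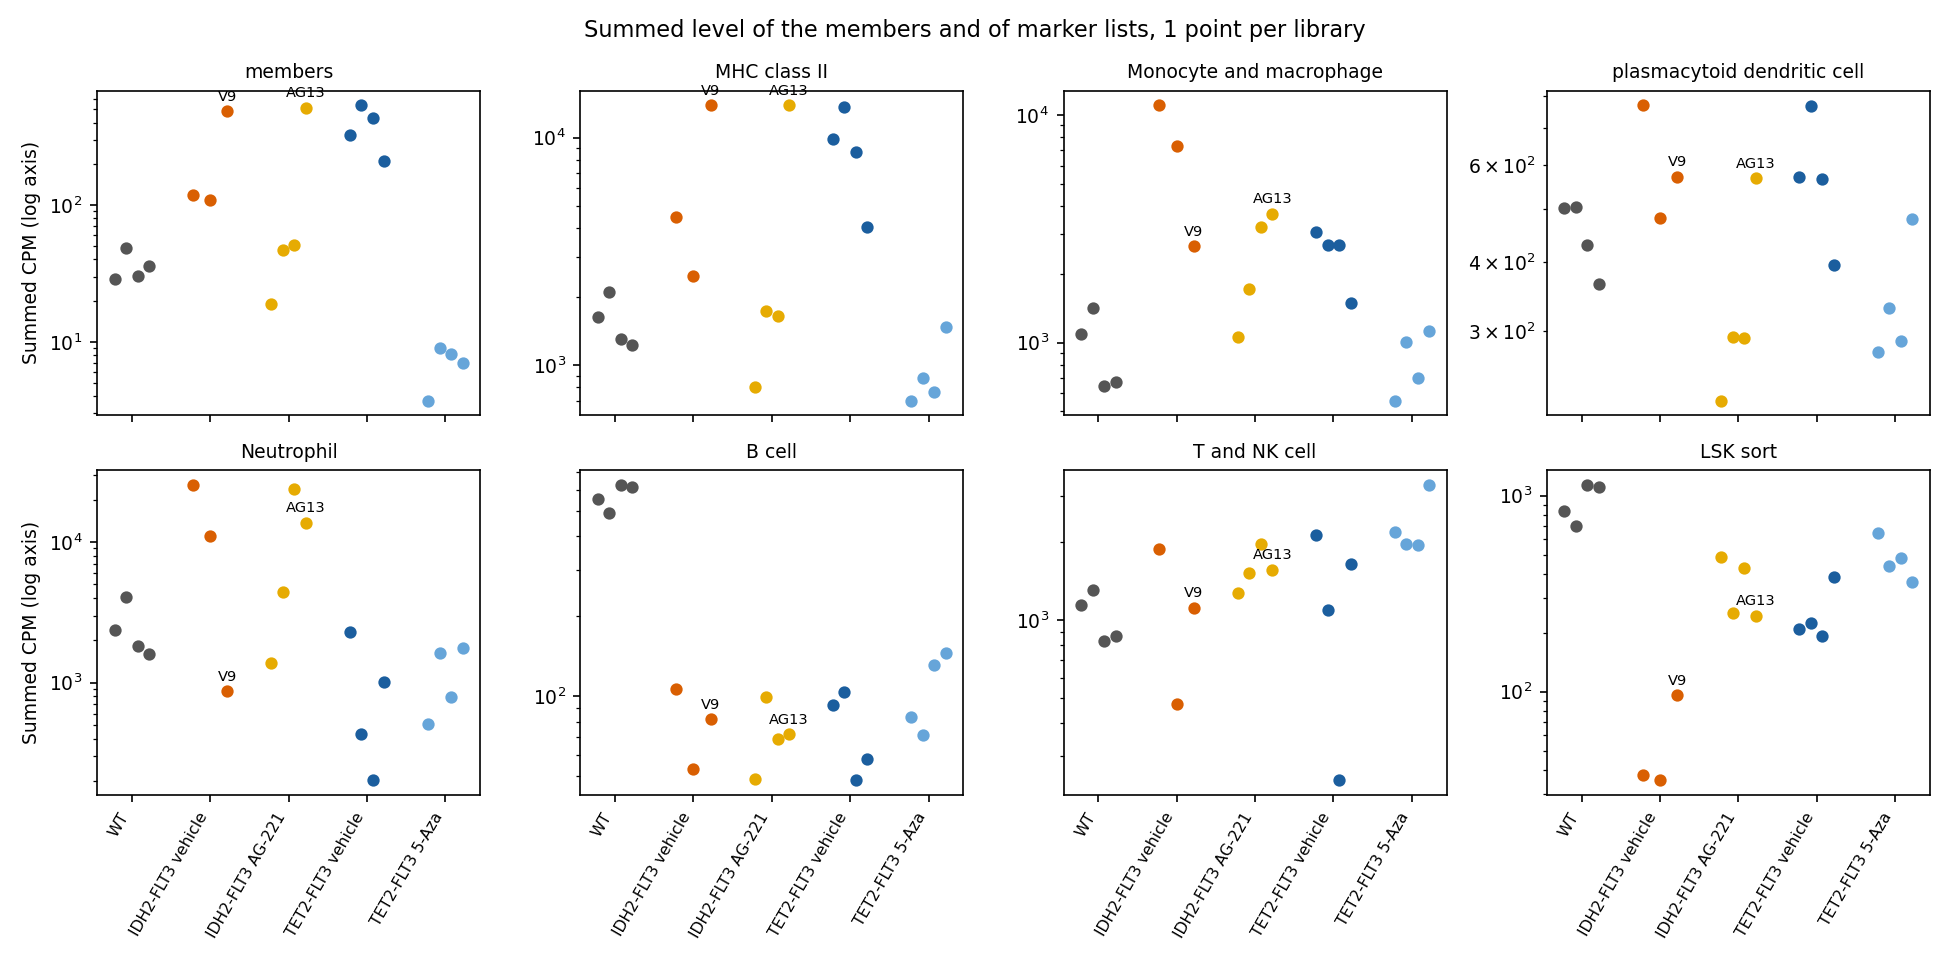
Summed CPM of the members and of 7 marker lists on log axes, 1 point per library. V9 and AG13 are the highest libraries of their groups for the members and for MHC class II genes, while V9 is the lowest of its group for monocyte and neutrophil markers.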

How the data were processed

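Polyadenylated RNA of 19 libraries from sorted LSK cells was analysed in 5 groups. Per the labels' protocols, libraries were made with the SMARTer Ultra Low Input kit. STAR 2.4.0f1, featureCounts of Subread 1.4.5-p1 and the build mm9 are named in the submitters' processing notes. The strand setting is not given in the sources used here. The authors deposited whole read counts and FPKM for each RefSeq accession, and their FPKM could be recomputed from counts, totals and lengths. Each column's header gave its group. Of 33862 accessions, 33481 were named from RefSeq and 192 from GENCODE, and the 189 unnamed held 3.47% of counts. No pair of libraries was a copy (lowest chi-square per accession 14.6).

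With edgeR 4.0.16 in R 4.3.3, filterByExpr kept 11830 accessions. TMM scaling factors lay between 0.761 and 1.22. The quasi-likelihood model, with 1 mean per group, had 14 residual degrees of freedom and a biological coefficient of variation of 42.9%. Benjamini-Hochberg adjusted p-values cover all 11830 accessions, with a threshold of 0.05. CPM used library totals times TMM factors. A group at 0 was bounded by 3 counts over its libraries, which covers counting error only.

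The members and all lists were chosen with earlier results of these data known. In each comparison the listed genes past the threshold with the smallest p are named, at most 8. For each measured member the 3 genes nearest in profile are named, leaving out predicted, small RNA, Y-linked and Xist genes and adding 0.5 CPM before logs. Irf8, Zbtb46 and those cited with markers were named after their values were seen. Alternatives were size factors of DESeq2 1.42.0 in edgeR, no filter, a fit of only the groups compared, DESeq2, limma 3.58.1 on log2(FPKM + 1) and log2(FPKM + 0.1), summed accessions, each library left out, and V3-2 and V5-2 left out together.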

Additional observations from a re-analysis of the deposited data

Results flagged for a closer look

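In 108 groups of 4 libraries checked, 21 had a library far from the others. The limit used would flag about 1 in 20 if values were independent and normally distributed. Levels of related genes in the same libraries are not independent, so no excess over chance is read from the 21. AG13 of the AG-221 group was the far library in 14 of them. It stood above the other 3 at 237 CPM for Xcr1, 93.1 for Tlr11, 44.0 for Batf3 and 136 for Tlr3. It did so too at 44.4 CPM for Snx22, 153 for Itgae, 35.1 for Ccl22, 59.98 for Itgax, 31.4 for Cxcl16, 130.0 for Cd209a, 22.4 for Cd207, 208 for Rab7b, 54.9 for Hepacam2 and 33.2 for Tlr13.

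In WT, wt2 had 20.2 CPM of Xcr1, above the other 3. In TET2-FLT3 vehicle, V5 had 38.1 CPM of Batf3, V1 had 123 of Nfil3 and 27.9 of Cd207, and V5-2 had 31.5 of Tlr9 and, below the others, 19.5 of Esam. In 5-Aza, AZ16 had 1.21 CPM of Hepacam2, above the others. The drug responses differed for Itgae by 7.45 on the log2 scale, by the fit's own test of that difference.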

How the results depend on the processing

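Counts of the 46 other dendritic cell genes were recomputed under each alternative. With 1 library left out they ran from 18 to 24 in IDH2-FLT3 vehicle against WT, 6 to 18 in TET2-FLT3 vehicle against WT, 0 to 14 with AG-221, 4 to 16 with 5-Aza, 1 to 8 between the vehicle groups and 0 to 14 for the difference of drug responses. The AG-221 count of 8 was 0 with only the groups compared and 0 without V3-2 and V5-2. Between the vehicle groups the count of 2 was 5 with no filter, 1 with only the groups compared, 7 in DESeq2, 4 in limma on FPKM and 1 without V3-2 and V5-2. For the difference of drug responses the count of 1 was 10 with no filter, 0 with only the groups compared, 11 in DESeq2, 0 in limma and 0 without V3-2 and V5-2. The other alternatives moved no count by over 1.5 times. No named gene with a call reversed, and 96 of its alternative tests lost the call; the cause was not tested. Summed accessions and the pseudocount of 0.1 for the named genes, and the bounds without the highest library, were chosen after seeing the data. No paired analysis was possible because the column names of the mutant groups carry no replicate number of the labels. Precision is limited by 3 or 4 libraries a group and, for Tlr11 and Batf3 with 5-Aza, by 3 to 18 counts.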
